A study of Mus musculus with 15 samples.

Results

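Retinas of mice lacking both Cnga3 and Nrl were compared with retinas lacking Nrl alone, and the changes are described across genes by function and by the agreement of the probes of each gene. The arrays were chosen by title, 5 named CNGA3 (replicates 1 to 5) and 5 named Nrl (replicates 1 to 5), which are 10 of the 15 arrays of the study. The first group has the genotype CNGA3-/-/Nrl-/- and is called the Cnga3 double knockout here. The second is Nrl-/- and serves as its control. The other 5 arrays, of CNGB3-/-/Nrl-/- mice, helped to estimate the spread and appear only where the double knockouts are set against each other. Every mouse in the study lacks Nrl, was taken at postnatal day 30 and is on a C57bl/6 background. Each array of an Illumina mouse expression beadchip read total RNA from the pooled retinas of 1 mouse, so the 5 arrays of a group are 5 animals. The control is not a wild-type retina, and whole retinas were read, so that fewer cells of a type and less RNA per cell cannot be told apart.

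Photoreceptor precursors become rods through the transcription factor Nrl, and in its absence they take on features of cones. Cones signal through a channel of Cnga3 and Cngb3 subunits in the outer segment, which cyclic GMP opens in the dark and which lets in sodium and calcium. Light closes it through transducin and a phosphodiesterase, and guanylate cyclase with its activating proteins restores cyclic GMP. Cones lacking Cnga3 do not respond to light and degenerate, and loss of the human gene causes achromatopsia.

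Guca1b and Pde6b of the phototransduction pathway and Drd4 were among the genes with the greatest changes, and the promoters of Pde6b and Drd4 are shown for that reason. Guca1b, which activates guanylate cyclase, read 8.68, 8.92, 9.95, 8.02 and 9.37 (normalized log2 intensity) in control replicates 1 to 5 and 5.66, 5.53, 6.14, 5.25 and 5.6 in the double knockout. Pde6b, which encodes a catalytic part of the phosphodiesterase of rods, read 10.18, 10.29, 10.11, 10.13 and 10.40 in the controls and 7.85, 7.50, 7.44, 6.83 and 7.44 in the double knockout. Drd4, a dopamine receptor of photoreceptors, read 9.83, 9.42, 10.26, 9.75 and 10.32 in the controls and 12.28, 12.21, 12.34, 11.70 and 11.78 in the double knockout. No value of one group entered the range of the other in these genes, and double knockout replicate 4 was the lowest of its group in each. The RefSeq promoters (GRCm38.p6, from 250 bases before the start of the gene to 50 after it) of Pde6b at chr5:108388123-108388422 on the + strand and of Drd4 at chr7:141291768-141292067 on the + strand are given 5′ to 3′. Capitals mark matches to TGCTGA, the core of the site bound by the Maf family to which Nrl belongs, or to its reverse complement TCAGCA.
Pde6b: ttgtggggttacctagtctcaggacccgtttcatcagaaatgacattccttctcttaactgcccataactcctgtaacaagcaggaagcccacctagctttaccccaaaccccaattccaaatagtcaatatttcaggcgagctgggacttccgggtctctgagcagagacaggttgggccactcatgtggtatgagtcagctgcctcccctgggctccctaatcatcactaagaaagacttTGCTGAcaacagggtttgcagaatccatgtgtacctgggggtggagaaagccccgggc
Drd4: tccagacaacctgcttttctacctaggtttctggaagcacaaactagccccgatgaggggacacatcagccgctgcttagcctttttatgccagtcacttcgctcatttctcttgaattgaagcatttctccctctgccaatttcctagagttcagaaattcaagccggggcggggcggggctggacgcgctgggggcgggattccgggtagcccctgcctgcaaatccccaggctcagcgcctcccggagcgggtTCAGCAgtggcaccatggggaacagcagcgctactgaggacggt
Each holds 1 match to TGCTGA on either strand and none to TAATCC, the core site of the homeodomain factors Crx and Otx2, or its reverse complement GGATTA. The promoter of Arr3, another of the greatest changes, is not shown and holds 0 matches to TGCTGA or TAATCC on either strand. The Maf core on either strand lay in 39 of 250 promoters of genes called higher (15.6%), in 38 of 277 of genes called lower (13.7%) and in 1102 of 7422 of all measured genes (14.8%). The shares for TAATCC were 5.2%, 5.42% and 5.96%. Over all promoters of the table the shares were 19.5% for TGCTGA and 7.06% for TAATCC, and a match describes the letters in the window only.

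Arrays were unequal in ways that touch some of the results. The number of detected probes ran from 10302 in control replicate 3 to 13763 in Cnga3 double knockout replicate 2, and the median intensity from 136.8 to 171. A list's score is the mean deviation of its genes from their mean over the 15 arrays, on the log2 scale. The score of 22 lens and crystallin genes was -5.55 in control replicate 1 and -3.57 in control replicate 3, against -0.38 to 1.48 in the other 3 controls and -0.07 to 1.01 in the double knockout. Cnga3 double knockout replicate 4 had the highest score of its group for 19 microglia markers (1.15 against -0.39 to -0.03 in the other 4) and for 14 markers of retinal pigment epithelium (0.58 against -1.34 to -0.63). Their part in the results was not tested. Only some of the counts below are also given without these arrays, and others moved as well. Of the targeted genes, the Cnga3 probes differed by -0.28 (adjusted p = 0.396) and -0.14 (adjusted p = 0.598), Cngb3 by 0.01 (adjusted p = 0.983), and the Nrl probe was not detected on any array. No source used here places the Cnga3 probes relative to the deleted part, so they do not check the labels.

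Of 13077 probes kept, which had a detection p under 0.01 on at least 5 of the 15 arrays, 603 (4.61%) were called higher and 448 (3.43%) lower in the Cnga3 double knockout, 8.04% in all, by limma's moderated test at an adjusted p under 0.05. With each gene read on its brightest kept probe, 315 of 9097 genes (3.46%) were called higher and 348 (3.83%) lower, 663 (7.29%) in all. The 5 values of one group lay outside the range of the other in 577 genes (6.34%). Of the genes called higher 19 were undetected on all 5 control arrays, and of those called lower 9 were undetected on all 5 double knockout arrays, so that their fitted changes are not exact. Most changes were modest. The median change was 0.71 among genes called higher and -0.62 among genes called lower, and the smallest called change was 0.36. Between 0.5 and 0.75 on the log2 scale lay 129 rises and 189 falls, 101 rises and 66 falls lay between 0.75 and 1, and 41 rises and 24 falls between 1 and 1.5. Beyond 2 lay only the rise of Drd4 and the falls of Guca1b, Pde6b, Pdzph1 (-2.58), Arr3 and Erdr1 (-2.17). Calls were spread over the range of brightness, with 6.43% of genes called in the dimmest of 5 equal classes of mean level and 7.25 to 7.81% in the other 4. Among the 50 measured genes nearest to Cnga3 in gene order 5 (10%) were called, against 7.27% of the 9046 others. Without control replicates 1 and 3 and double knockout replicate 4, which stood apart, 1175 probes were called higher and 699 lower, an alternative chosen after seeing the data. Without control replicate 2, or double knockout replicate 2 or 5, 325, 367 and 334 probes were called higher and 227, 249 and 217 lower. The Cngb3 double knockout arrays, which share the estimate of the spread, were the most alike. Their mean correlations within the group were 0.9824 to 0.9846, against 0.9425 to 0.9658 in the controls and 0.9496 to 0.9772 in the Cnga3 double knockout. With only the 10 arrays in the fit, which also leaves fewer degrees of freedom, 209 probes were called higher and 114 lower. Of the called probes 57.4% were higher, and 83.4% when arrays were centred on their medians in place of quantiles, which moved the median of all probes to 0.11. With 1 array left out at a time, the calls that ended and their highest adjusted p were those of Erdr1 (adjusted p up to 0.0716 without double knockout replicate 5). Erdr1 lost its call in 2 of 10 such fits. Here and below, the array named is that of the highest adjusted p, and a call may have ended without other arrays as well.

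The beadchip reads 2372 of the measured genes with 2 or more kept probes, which allows the call of a gene to be set beside its other probes. In 430 of them at least 1 probe was called. All probes of the gene were called in the same direction in 38 (23 higher, 15 lower), which is 8.84% of the 430. In another 277 some probes were called and all pointed the same way, in 113 at least 1 uncalled probe pointed the other way, and in 2 genes probes were called in opposite directions. The share of other probes called the same way was larger where the brightest probe changed more. Where that change was called and below 0.5, 69.8% of 43 other probes had the same sign and 11.6% were called the same way. Between 0.5 and 0.75 these shares were 80.3% and 22.6% of 137 probes, between 0.75 and 1 89.6% and 33.3% of 48, and above 1 85.7% and 38.1% of 21. Where the brightest probe was not called, 63% of 2987 other probes had its sign. Probes of one gene share the RNA of each array, so these shares describe the array and are not replicates.

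**Figure D1:**
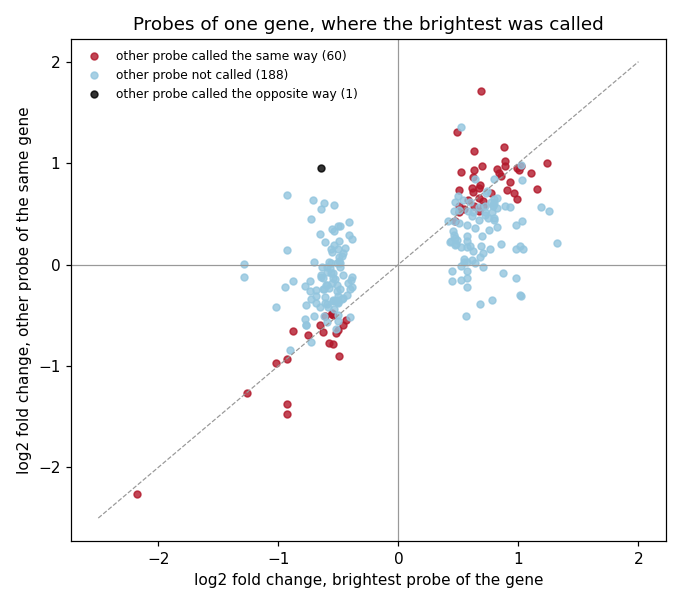
Log2 fold change (Cnga3 double knockout minus control) of the brightest probe of a gene (horizontal axis) and of each other kept probe of that gene (vertical axis), for genes called on the brightest probe. Of the 249 other probes 60 were called the same way (red), 188 were not called (blue) and 1 was called the opposite way (black); most lie to the lower left and upper right, and the dashed line marks equality.

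The 12 genes with the largest mean rise among those called on every probe cover several functions. Twistnb, a subunit of RNA polymerase I, read 8.65, 7.49, 7.87, 7.89 and 7.63 in control replicates 1 to 5 and 9.10, 9.01, 8.75, 9.59 and 9.29 in the double knockout. It rose by 1.24 (SE 0.193, adjusted p = 0.002) and by 1.0 on its other probe, and every double knockout value lay above every control on both. Ttyh1, a membrane protein of neural cells that forms an anion channel, read 11.89, 11.56, 11.64, 11.84 and 11.62 in the controls and 12.61, 12.78, 12.65, 12.27 and 12.68 in the double knockout. It rose by 0.89 (SE 0.124, adjusted p = 0.00131) and 1.02, again without overlap. Zmynd11, a reader of methylated histone H3, rose by 0.63, 1.12 and 0.93 on 3 probes, none of which overlapped between groups. The histone gene H2bc4 rose by 0.69 and 1.71, Sobp by 0.88 and 1.16, and Ppp4r3b, a regulatory subunit of protein phosphatase 4, by 1.11 and 0.91. Both the sodium-calcium exchanger Slc8a3 (0.99 and 0.95) and the mitochondrial calcium uniporter Mcu (0.84 and 0.91) rose. So did Rtn4, the endoplasmic reticulum protein also known as Nogo (1.15 and 0.74), the tetraspanin Tspan3 (0.49 and 1.31), the ubiquitin-conjugating enzyme Ube2e3 (0.93 and 0.82) and 2210016L21Rik (1.0 and 0.93). Of these 12 genes, the groups did not overlap on any probe in Twistnb, Ttyh1, Zmynd11, Tspan3 and Ube2e3. Calls lost without 1 array, with the highest adjusted p, were those of H2bc4, Sobp, Mcu and Tspan3 (adjusted p up to 0.0624, 0.0556, 0.0506 and 0.11 without control replicate 2) and Ppp4r3b (adjusted p up to 0.0957 without double knockout replicate 5).

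The falls that were called on every probe included 2 genes of the extracellular matrix. Arr3, the cone arrestin that binds activated cone opsin, read 12.87, 13.26, 13.24, 12.91 and 13.62 in the controls and 10.72, 10.94, 11.36, 10.94 and 11.04 in the double knockout on the brighter probe, and changed by -2.18 and -2.26. Tnc, which encodes the matrix glycoprotein tenascin C, read 8.12, 8.12, 8.24, 7.36 and 7.88 in the controls and 6.57, 6.76, 6.95, 6.11 and 7.01 in the double knockout. It fell by 1.26 on both probes (SE 0.199 and 0.185, adjusted p = 0.00212 and 0.00154), and the groups did not overlap on either. Col6a1, a chain of collagen VI, fell on both probes (-0.88 and -0.65), as did Chst3, which sulfates chondroitin (-0.63 and -0.67), and the secreted protein gene Fam3c (-0.55 and -0.50). Mettl17, a factor of mitochondrial ribosome assembly, also fell (-0.93 and -0.94), and so did Ndufaf5, which helps to assemble respiratory complex I (-0.50 and -0.90). Falls of -0.54 and -0.78 were read for Dusp6, the phosphatase that inactivates ERK, and of -0.61 and -0.51 for Me1, the cytosolic malic enzyme. The others were the transcription factor Ebf2 (-0.75 and -0.69), Ankzf1 (-0.58 and -0.78), which acts in ribosome quality control, and Polr2e (-0.52 and -0.67), a subunit shared by the nuclear RNA polymerases. Leaving out 1 array ended the calls of Chst3, Dusp6 and Ankzf1 (adjusted p up to 0.109, 0.0514 and 0.0731 without control replicate 2), Ndufaf5 and Ebf2 (adjusted p up to 0.0923 and 0.0643 without double knockout replicate 2) and Polr2e (adjusted p up to 0.0959 without control replicate 5). Chst3 and Polr2e each lost their call in 8 of the 10 such fits, and Ndufaf5 in 7.

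**Figure D2:**
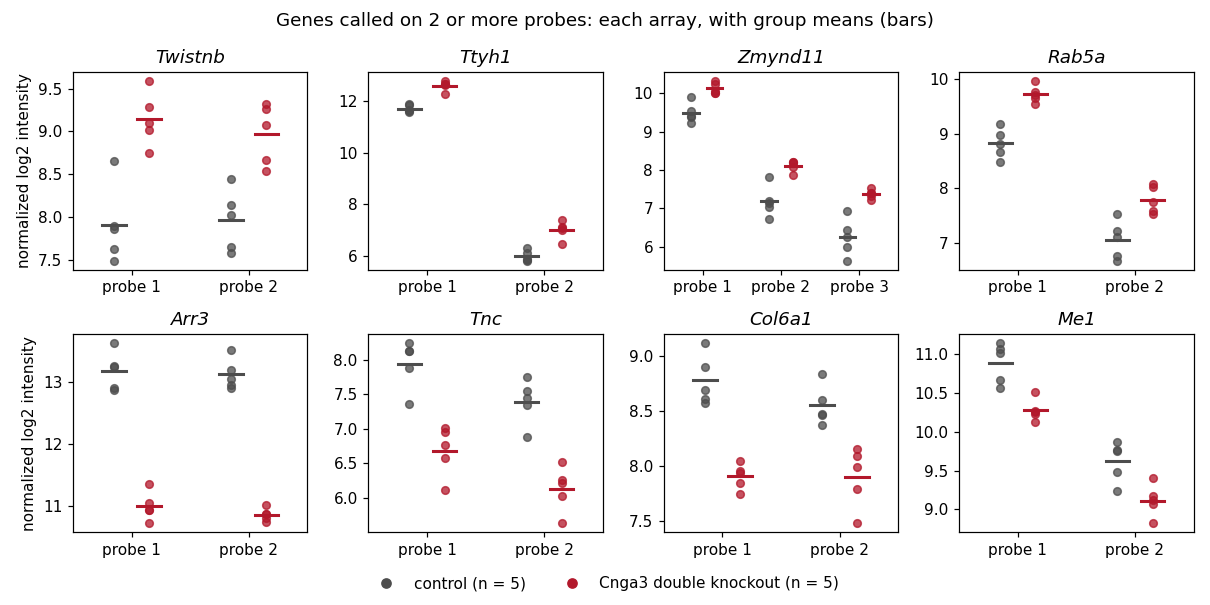
Normalized log2 intensity (vertical axis) of 8 genes called on all their probes, with the brightest as probe 1; each point is 1 array, grey for the control and red for the Cnga3 double knockout, and bars are means of 5 arrays. Twistnb, Ttyh1, Zmynd11 and Rab5a are higher and Arr3, Tnc, Col6a1 and Me1 lower in the double knockout on every probe, and only the second probes of Rab5a and Me1 overlap between groups.

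In some genes the probes disagreed. Insig1, which holds back sterol synthesis, fell by 0.64 (adjusted p = 0.0295) on its brightest probe and rose by 0.95 (adjusted p = 0.0243) on another, while the last read 0.55 (adjusted p = 0.0923). Mtus1, a microtubule-associated protein gene, fell by 0.63 (adjusted p = 0.0262) and rose by 0.70 (adjusted p = 0.0253) on its called probes, with its brightest probe at -0.32 and the last at -0.01, neither called. Actb, which encodes cytoplasmic beta-actin and was singled out after its values were seen, fell on 3 of 5 probes, with changes of -0.93, -1.47 and -1.38 (adjusted p = 0.002, 0.00355 and 0.00649), while the other two read 0.14 and 0.69 and were not called. On the brightest probe Actb read 13.14, 13.33, 13.65, 13.40 and 13.80 in the controls and 12.66, 12.31, 12.84, 12.40 and 12.49 in the double knockout, without overlap. Without 1 array, calls ended for Insig1 (adjusted p up to 0.072 without double knockout replicate 5).

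The dimmer probes of genes with several kept probes had the larger share called higher. Of 3236 such probes 255 (7.88%) were called higher and 69 (2.13%) lower, with a median change of 0.09. Of the brightest probes of the same 2372 genes 95 (4.01%) were called higher and 91 (3.84%) lower, and of the only probes of 6725 genes 220 (3.27%) and 257 (3.82%). The share called higher was above that of the other classes at each level, from 8.32% against 4.68% and 3.41% at a mean of 6 to 7 to 8.4% against 3.31% and 3.10% at 10 to 11. The mean deviation of the dimmer probes was 0.04 to 0.07 on the 5 double knockout arrays and -0.10 to 0.002 on the 5 controls, without overlap, and -0.02 to 0.01 on the Cngb3 double knockout arrays. Counts over probes were 603 higher against 448 lower, and counts over genes on the brightest probe 315 against 348. With arrays centred on their medians the gene counts also leaned higher, at 451 against 135. Probe positions within the transcripts were not used here.

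**Figure D3:**
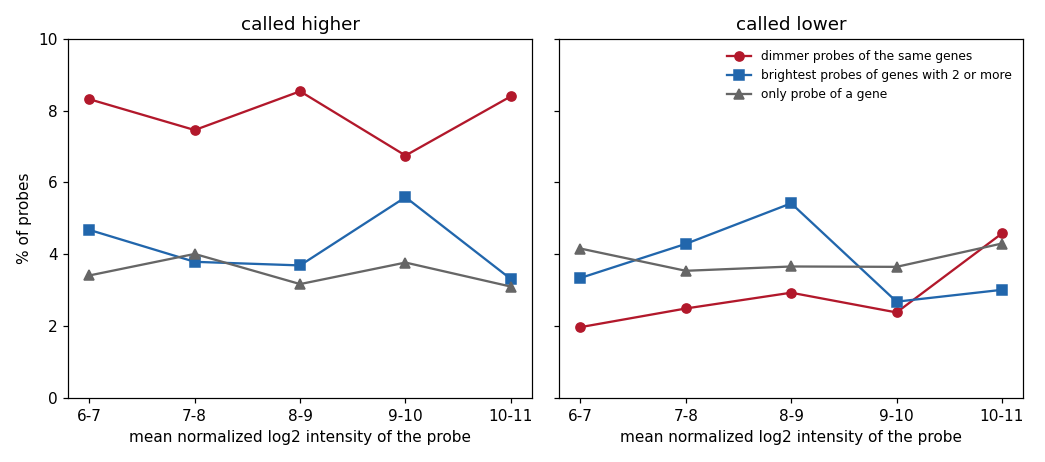
Percent of kept probes called higher (left) and lower (right) in the Cnga3 double knockout, by the probe's mean normalized log2 intensity, for dimmer probes of genes with 2 or more kept probes (red), the brightest probes of those genes (blue) and the only probe of a gene (grey). The red line lies above the others at every level on the left, from 6.75 to 8.54%.

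Gene lists were read on the brightest probe, where 3.46% of all genes were called higher, 3.83% lower and the median change was -0.03. Other probes are not given for every gene named below, and their absence does not mean that they agreed. Among lists with at least 15 measured genes, the largest shares called higher were those of histone genes, rod photoreceptor genes (31.2%, beside 12.5% called lower) and genes of the photoreceptor ribbon synapse. Of such lists with more genes called lower than higher, those of the axoneme, of cone photoreceptors, of sphingolipid metabolism and of tRNA charging had the largest shares called lower. The cone list rested on 2 calls lower and 1 higher, and its lean turned to 4 higher and 2 lower in the authors' log2 table and with an intensity trend, and to 4 higher and 3 lower with array weights. By limma's test no gene of intraflagellar transport or the BBSome was called among 41 measured, none of the circadian clock among 18 and none of the Wnt and Hippo pathways among 24. At an unadjusted p under 0.05, 3, 2 and 5 genes of these lists were higher and 4, 0 and 3 lower. On any kept probe 1, 1 and 1 were called higher and 1, 0 and 0 lower.

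**Figure D4:**
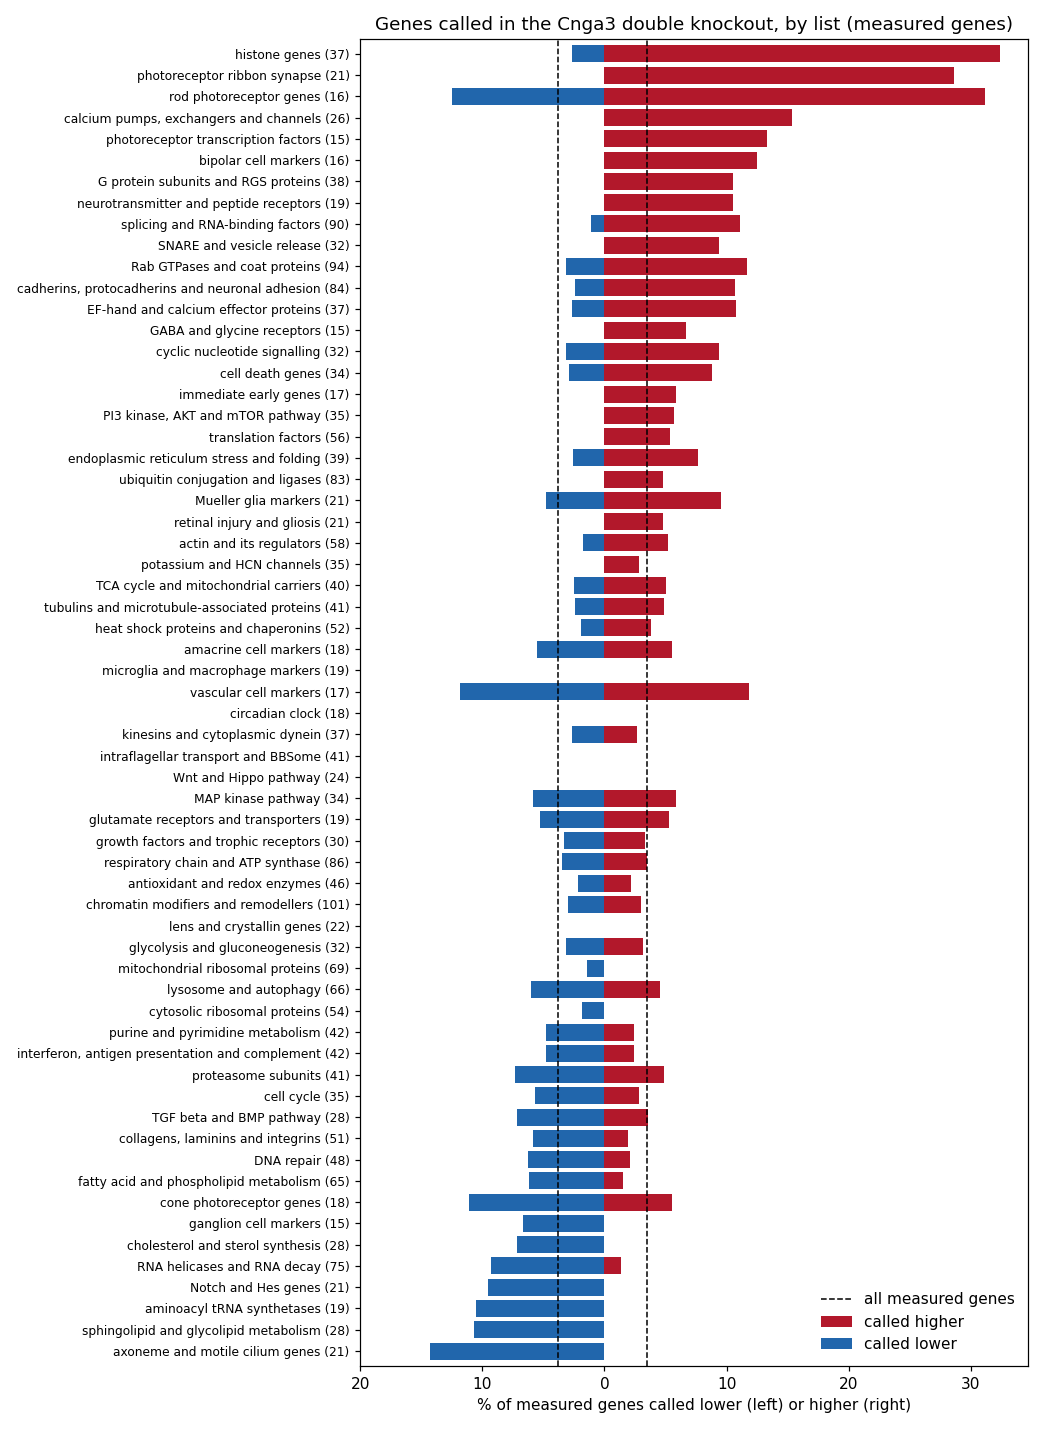
Percent of the measured genes of each list (number in brackets) called higher (red, to the right) or lower (blue, to the left) on the brightest probe, for lists with at least 15 measured genes; dashed lines mark 3.46 and 3.83%, the shares of all 9097 genes. Histone genes stand at the top, with 32.4% called higher, and genes of the axoneme and motile cilium at the bottom, with 14.3% called lower.

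Histone genes, which encode the proteins that DNA is wound on, had the largest share called higher of the lists with at least 15 measured genes. Of 37 measured 12 (32.4%) were called higher and 1 lower, and the median change was 0.40. The genes called higher were 6 of the 7 measured H4 genes, 4 of 10 H2B genes and 2 of 16 H2A genes. Of the 12, 10 lie by RefSeq gene positions on chromosome 13, where 24 of the 37 are, and 2 on chromosome 11. H2ac6 read 5.64, 5.22, 4.68, 5.65 and 4.83 in control replicates 1 to 5 and 6.25, 6.40, 6.53, 6.53 and 6.34 in the double knockout, and rose by 1.20 (SE 0.189, adjusted p = 0.00212). H2aw read 8.87, 8.81, 8.75, 8.95 and 8.60 in the controls and 9.44, 9.65, 9.53, 9.61 and 10.01 in the double knockout, and rose by 0.85 (SE 0.139, adjusted p = 0.00258). The double knockout lay wholly above the control in both, although H2ac6 was detected on only 2 control arrays. H4c8 rose by 1.11 (adjusted p = 0.0103) and H4c6 by 0.94 (adjusted p = 0.00873), also without overlap. H4c3 was called higher (adjusted p = 0.00702) but was not detected on any control array, and the detection limit allows no fold for it. H4 genes are near-identical copies, so that their probes may read each other's transcripts and the 6 are not separate measurements. H2al1e, a testis histone variant gene, was the one called lower (-1.63, adjusted p = 3.46e-05) and was detected on 5 control arrays and 1 double knockout array.

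The promoters of H2ac6 and H2aw are shown because both hold the octamer that is known from histone H2A and H2B promoters. They lie at chr13:23683910-23684209 on the - strand and at chr11:58954435-58954734 on the + strand (RefSeq, GRCm38.p6) and are given 5′ to 3′ in the direction of the gene. Capitals mark ATGCAAAT, which is the octamer ATTTGCAT on the other strand, and in H2ac6 also GGATTA, which overlaps it.
H2ac6: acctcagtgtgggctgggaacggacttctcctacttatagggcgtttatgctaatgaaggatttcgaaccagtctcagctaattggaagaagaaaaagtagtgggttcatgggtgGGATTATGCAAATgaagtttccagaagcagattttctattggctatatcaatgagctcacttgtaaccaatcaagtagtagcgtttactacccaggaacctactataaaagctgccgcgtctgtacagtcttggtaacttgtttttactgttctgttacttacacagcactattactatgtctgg
H2aw: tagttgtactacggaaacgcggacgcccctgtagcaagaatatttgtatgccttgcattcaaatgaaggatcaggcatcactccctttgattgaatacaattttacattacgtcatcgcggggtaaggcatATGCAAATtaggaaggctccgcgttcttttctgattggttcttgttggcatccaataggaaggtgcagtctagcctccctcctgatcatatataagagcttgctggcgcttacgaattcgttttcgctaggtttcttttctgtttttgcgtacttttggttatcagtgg
The octamer on either strand lay in 2 of 11 promoters of histone genes called higher, in 6 of 24 of the other measured histone genes, and in 1.37% of the promoters of all measured genes. Over all promoters of the table the share was 1.74%. The motif was chosen after these values were seen. On the arrays, the histone score was 0.07, 0.20, 0.13, 0.65 and 0.16 in double knockout replicates 1 to 5 and -0.14, -0.38, -0.01, -0.22 and -0.06 in the controls. The groups did not overlap, and double knockout replicate 4, with the highest microglia score, stood above the rest. Without it 9 histone genes were called higher and 1 lower, with a median of 0.29. Without control replicate 2, the lowest array, 5 were called higher, without double knockout replicate 5 the count was 7, and without the Cngb3 double knockout arrays in the fit it was 5.

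**Figure D5:**
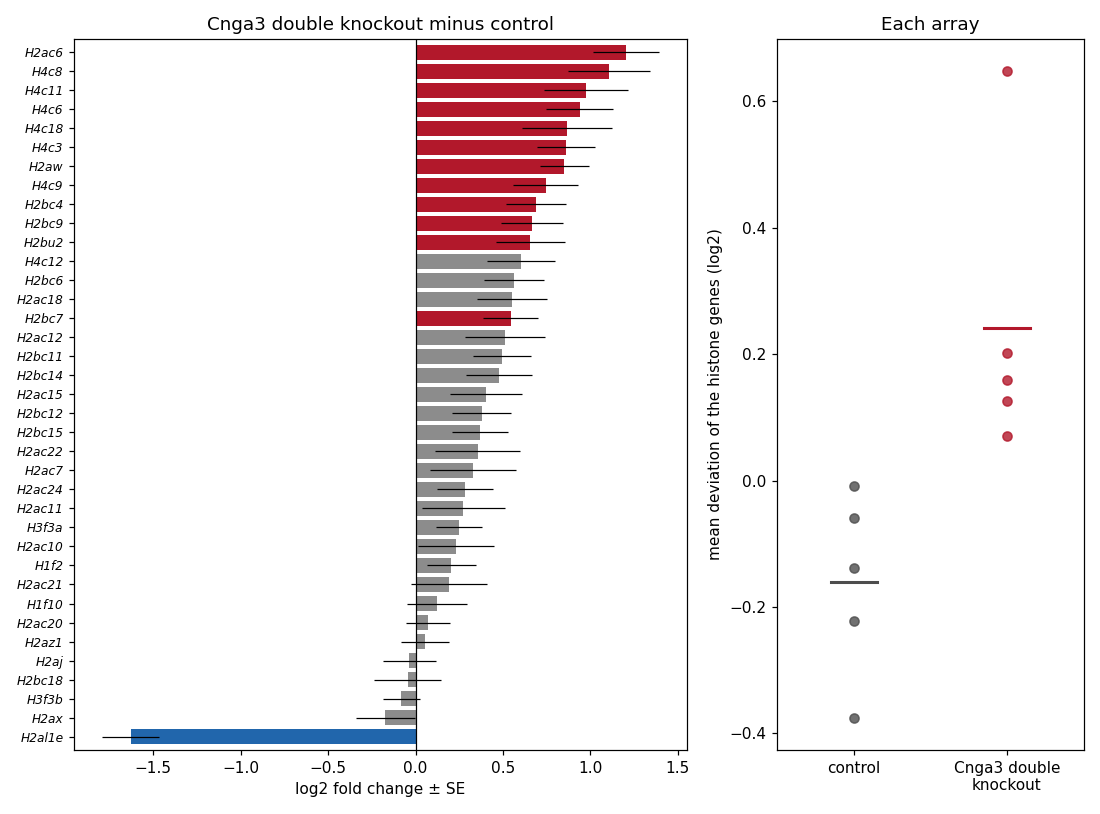
Left, log2 fold change ± SE (horizontal axis) of the 37 measured histone genes, with genes called higher in red, lower in blue and not called in grey. Right, mean deviation of these genes on each array (vertical axis, log2), with bars for group means; the 5 double knockout arrays lie from 0.07 to 0.65 and the 5 controls from -0.38 to -0.01.

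Of 90 splicing and RNA-binding factors 10 (11.1%) were called higher and 1 (1.11%) lower, with a median of 0.02. All genes had 3.46% called higher and 3.83% lower. Hnrnpk, which binds poly-C stretches, read 9.66, 9.17, 9.77, 8.97 and 9.46 in the controls and 10.14, 10.24, 10.17, 10.42 and 10.40 in the double knockout, and rose by 0.87 (SE 0.153, adjusted p = 0.00415). Its other probe read -0.09 and was not called. Khdrbs1, the RNA-binding protein Sam68, rose by 0.85 and 0.87 (adjusted p = 0.0079 and 0.00335), without overlap on either probe, and Hnrnpf by 0.72 (adjusted p = 0.00778). The call lower was that of Clk2 (-0.49), a kinase of splicing factors, whose other probe read 0.03 and was not called. Of 75 RNA helicases and genes of RNA decay 7 were called lower and 1 higher, with a median of -0.08, and on any kept probe 7 were called lower and 5 higher. The difference between these lists was not tested. The rise was that of Ddx5 (1.19, adjusted p = 0.00892), a helicase that both lists hold. Cnot9, a subunit of the deadenylase complex, fell by 0.54 (adjusted p = 0.0153), and Exosc7, of the RNA exosome, by 0.48 (adjusted p = 0.0165). Dhx9, the largest fall of the list, fell by 1.08 (adjusted p = 0.0228), with 1 double knockout value inside the control range. With arrays centred on their medians 0 of the 75 were called lower and the median was 0.06. With the Cngb3 double knockout arrays left out of the fit 0 were also called lower, at the same median of -0.08. Leaving out 1 array gave 3 to 7 calls lower, with 3 without control replicate 2 or 5 or double knockout replicate 5 and 4 without control replicate 4 or double knockout replicate 2. The score of the list was -0.26 in double knockout replicate 4 against 0.01 to 0.04 in the rest of its group, and -0.16 to 0.13 in the controls. With 1 array left out at a time, the calls that ended and their highest adjusted p were those of Clk2 and Dhx9 (adjusted p up to 0.0926 and 0.062 without double knockout replicate 5).

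Vesicle traffic, synapse and adhesion genes were called higher more often than lower, where all genes had 3.46% called higher and 3.83% lower. Of 94 Rab GTPases and coat proteins, which form and steer vesicles, 11 (11.7%) were called higher and 3 (3.19%) lower. Rab5a, of early endosomes, read 9.17, 8.98, 8.48, 8.67 and 8.81 in the controls and 9.54, 9.66, 9.71, 9.97 and 9.76 in the double knockout. It rose by 0.91 (SE 0.142, adjusted p = 0.00207) and by 0.73 on its other probe (adjusted p = 0.0253). Rab6a, of the Golgi, rose by 1.01 (adjusted p = 0.00296), with its double knockout values between 9.97 and 10.12 and its controls between 8.48 and 9.57, but its other probes read 0.18 and -0.30 and were not called. Of 21 genes of the photoreceptor ribbon synapse, the structure that feeds vesicles to photoreceptor release sites, 6 were called higher and 0 lower (2 lower at an unadjusted p under 0.05), and the median was 0.26. Dlg4, the scaffold PSD-95, rose by 1.14 (adjusted p = 0.00787), from 8.94, 7.89, 9.32, 7.99 and 8.62 to 9.40, 9.82, 9.87, 9.57 and 9.79. Rims1, of the active zone, rose by 0.96 (adjusted p = 0.01), and Egflam, the matrix protein pikachurin of the photoreceptor terminal, by 1.02 (adjusted p = 0.0106, detected on 1 control array), while its other probe read -0.31. The ribbon synapse score was 0.16 to 0.28 on double knockout arrays other than replicate 4, which read -0.18, and -0.22 to -0.03 in the controls.

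Among 32 SNARE and vesicle release genes 3 (9.38%) were called higher, where all genes had 3.46%, and 0 lower (2 at an unadjusted p under 0.05). Rab3c, which binds synaptic vesicles, was not detected on any control array and was at least 1.15-fold higher (adjusted p = 0.0266). The calcium sensor Doc2b rose by 0.50 and the complexin Cplx2 by 1.29. Of 84 cadherins, protocadherins and neuronal adhesion genes 9 (10.7%) were called higher and 2 (2.38%) lower, with a median of 0.13. Pcdh9 was not detected on any control array, where it read 4.49 to 5.08, and read 6.12 to 6.53 in the double knockout (adjusted p = 0.000176), at least 1.74-fold higher. Pcdhac2, of the clustered protocadherins, read 7.34, 5.67, 7.16, 6.23 and 6.78 in the controls and 7.50, 8.26, 7.91, 7.78 and 7.65 in the double knockout, and rose by 1.18 (adjusted p = 0.0114). Lrrtm2, a synaptic organizer, rose by 0.90 (adjusted p = 0.0161). The calls lower were those of Epha4 (-0.74, detected on 1 double knockout array) and Pcdha6 (-0.51). Without the Cngb3 double knockout arrays in the fit, 3 Rab and coat genes, 3 ribbon synapse genes and 3 adhesion genes were called higher and 0 lower. Without 1 array the counts higher fell to 4 for Rab and coat genes (without control replicate 2 or double knockout replicate 2), to 6 or 7 (without double knockout replicate 5 or control replicate 5), to 3 for ribbon synapse genes (without any 1 of double knockout replicates 1 to 3 or control replicate 2) and to 5 for adhesion genes (without double knockout replicate 2 or 5). Calls lost without 1 array, with the highest adjusted p, were those of Rab3c and Epha4 (adjusted p up to 0.063 and 0.0852 without double knockout replicate 5) and Doc2b, Cplx2 and Pcdha6 (adjusted p up to 0.0861, 0.102 and 0.0843 without control replicate 2). The call of Cplx2 was lost in 8 of the 10 such fits.

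Signalling genes showed calls in G protein and calcium pathways, where all genes had 3.46% called higher and 3.83% lower. Of 38 G protein subunits and RGS proteins 4 (10.5%) were called higher and 0 lower (4 lower at an unadjusted p under 0.05). Gnaz, an inhibitory alpha subunit, read 10.88, 10.45, 11.05, 10.50 and 10.59 in the controls and 11.50, 11.67, 11.63, 11.36 and 11.48 in the double knockout, and rose by 0.83 (SE 0.128, adjusted p = 0.00187). Gnao1, the Go alpha subunit that couples to the glutamate receptor of ON bipolar cells, rose by 0.80 (adjusted p = 0.00397) and read 0.46 (adjusted p = 0.0784) on its other probe. Gnas, the stimulatory subunit, rose by 0.82 and Gnaq by 0.43. Among 32 genes of cyclic nucleotide signalling the cAMP phosphodiesterase genes Pde4b (0.75, adjusted p = 0.00357) and Pde8a (0.50) and the kinase anchor gene Gkap1 were called higher. Gkap1 rose by 1.33, while its other probe read 0.21 and was not called. Adcy1, a calcium-stimulated adenylyl cyclase, read 7.85, 8.22, 7.97, 7.56 and 7.36 in the controls and 6.96, 7.24, 6.78, 6.26 and 6.35 in the double knockout and fell by 1.07 (SE 0.227, adjusted p = 0.0106). Of 26 calcium pumps, exchangers and channels 4 (15.4%) were called higher and 0 lower (3 lower at an unadjusted p under 0.05). Besides Slc8a3 and Mcu these were Atp2b1, the plasma membrane calcium pump (1.09, adjusted p = 0.00675), and Slc24a1, the rod sodium-calcium-potassium exchanger (0.70, adjusted p = 0.0309). The double knockout values of Atp2b1 lay between 8.37 and 8.90 and its controls between 6.92 and 8.21. Leaving out 1 array ended the calls of Gnaq and Slc24a1 (adjusted p up to 0.0839 and 0.0784 without control replicate 2) and Pde8a (adjusted p up to 0.106 without double knockout replicate 2). That of Pde8a ended in 8 of the 10 such fits.

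Growth and stress signalling moved in both directions. In the MAP kinase pathway 2 of 34 genes were called higher, Dusp8 (0.79, adjusted p = 0.00788) and Rasa1 (0.83), and 2 lower, Dusp6 and the kinase Araf (-0.59). Among 35 genes of the PI3 kinase, AKT and mTOR pathway Pdcd4, which inhibits translation initiation, rose by 1.42 and Prkaa2, a catalytic subunit of AMP-activated kinase, by 0.55. Of 28 genes of TGF beta and BMP signalling the BMP antagonist Chrd (-0.65, adjusted p = 0.0121) and the coreceptor Tgfbr3 (-0.80, adjusted p = 0.0151) were called lower and Id4 higher (0.64). The Notch list had 2 of 21 called lower, Psen2 (-0.67), a subunit of gamma secretase, and Nrarp (-0.48), a feedback inhibitor. Without 1 array, calls ended for Rasa1 and Psen2 (adjusted p up to 0.0644 and 0.0852 without double knockout replicate 5), Araf (adjusted p up to 0.0641 without control replicate 2) and Prkaa2, Id4 and Nrarp (adjusted p up to 0.0587, 0.0657 and 0.105 without double knockout replicate 2).

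The cilium and cytoskeleton lists held calls in both directions, where 3.46% of all genes were called higher and 3.83% lower. Of 21 axoneme and motile cilium genes 3 (14.3%) were called lower and 0 higher (1 at an unadjusted p under 0.05), with a median of -0.05. Riiad1 read 10.74, 11.11, 11.33, 10.80 and 10.94 in the controls and 9.37, 9.38, 9.84, 9.59 and 9.22 in the double knockout, and fell by 1.5 (SE 0.153, adjusted p = 3.54e-05). Ulk4, a pseudokinase of motile cilia, fell by 1.54 (adjusted p = 0.0162) from widely spread controls of 6.26 to 8.73, and Ccdc65, of the nexin-dynein regulatory complex, by 0.61. The other probe of Ccdc65 read -0.21 and was not called. Fscn2, a photoreceptor fascin that bundles actin and 1 of 12 measured outer segment genes, read 7.69, 7.99, 8.60, 7.49 and 7.83 in the controls and 6.24, 6.35, 6.31, 6.81 and 6.66 in the double knockout. It fell by 1.45 (SE 0.226, adjusted p = 0.002) without overlap and was the only call of its list on the brightest probe. On any kept probe 2 of the 12 were called lower and 0 higher. Of 58 genes of actin and its regulators 3 (5.17%) were called higher, Tpm3 (0.67), Wasf3 (at least 1.25-fold, undetected in the controls) and Capzb (0.57), and Actb lower (1.72%). The other probes of Capzb read 0.17 and 0.28 and were not called. Of 41 tubulins and microtubule-associated proteins Agtpbp1, which shortens the side chains of tubulin, was undetected in the controls and at least 1.04-fold higher, Tuba1a rose by 0.43, and Tubg1, of the centrosome, fell by 0.53. With 1 array left out at a time, the calls that ended and their highest adjusted p were those of Ccdc65 and Tuba1a (adjusted p up to 0.0979 and 0.0904 without double knockout replicate 2), Wasf3 and Agtpbp1 (adjusted p up to 0.0634 and 0.0665 without double knockout replicate 5) and Capzb (adjusted p up to 0.0999 without control replicate 2).

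Lists of protein synthesis and turnover lay on both sides of the shares of all genes, which were 3.46% called higher and 3.83% lower. Of 83 genes of ubiquitin conjugation and ligation 4 were called higher and 0 lower (7 lower at an unadjusted p under 0.05), with a median of 0.14. They were Ube2e3, the ligase subunit Fbxw7 (0.99, adjusted p = 0.0102, and 0.65 on its other probe, adjusted p = 0.0405), the deubiquitinase Usp7 (0.67) and the conjugating enzyme Ube2d3 (0.50). On any kept probe 13 of the 83 were called higher and 0 lower, and on the brightest probe 8 were called higher without control replicate 4 and 7 without double knockout replicate 4. Proteasome subunits split, with 2 of 41 (4.88%) called higher and 3 (7.32%) lower. Of the subunits named by the rule, Psmd8 fell by 0.56 (adjusted p = 0.0153) and Psmg2, an assembly chaperone, by 0.70 (adjusted p = 0.00873), while Psmd6 rose by 0.97. Among 52 heat shock proteins and chaperonins Hspa1a rose by 0.80 (adjusted p = 0.00448), Hspa4 rose by 0.78 and Hsph1 fell by 0.74. Atf4, the transcription factor of the integrated stress response, rose by 0.61 (adjusted p = 0.00964), from 10.08 to 10.75 in the controls to 10.97 to 11.24 in the double knockout. Of 54 cytosolic ribosomal protein genes 1 was called on the brightest probe, Rps14 (-0.38), and of 69 mitochondrial ones also 1, Mrpl28 (-0.36). On any kept probe 1 of the 69 was called higher and 3 lower. Among 56 translation factors Pabpc1, the cytoplasmic poly(A)-binding protein, rose by 0.88 (adjusted p = 0.00164) and by 0.97 on a second probe, and Eif4b (detected on 1 control array) and Eef2 both rose by 0.80. The tRNA synthetase genes Hars (-0.93) and Kars (-0.62) fell, 2 of 19 (10.5%). Calls lost without 1 array, with the highest adjusted p, were those of Ube2d3, Hsph1, Mrpl28 and Eef2 (adjusted p up to 0.0724, 0.0661, 0.0991 and 0.106 without control replicate 2), Hspa4 (adjusted p up to 0.0704 without double knockout replicate 2) and Rps14, Eif4b and Kars (adjusted p up to 0.095, 0.0902 and 0.0722 without double knockout replicate 5). Eif4b lost its call in 8 of the 10 such fits and Rps14 in 7.

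Lipid genes had small counts, with more called lower than higher on the brightest probe. Of 65 genes of fatty acid and phospholipid metabolism 4 (6.15%) were called lower and 1 (1.54%) higher, with a median of -0.17. Of all genes 3.83% were called lower and 3.46% higher. On any kept probe 4 of the 65 were called lower and 3 higher, and on the mean of a gene's probes 3 lower and 2 higher. Acadm, the medium-chain acyl-CoA dehydrogenase of fatty acid oxidation, read 11.29, 11.73, 10.79, 11.29 and 11.52 in the controls and 10.39, 10.20, 10.38, 10.61 and 10.34 in the double knockout, and fell by 0.94 (SE 0.153, adjusted p = 0.00255), while its other probe read -0.22 and was not called. Elovl5, a fatty acid elongase, fell by 0.61 (adjusted p = 0.00721), and Fads2, the desaturase of the same pathway, rose by 0.98 (adjusted p = 0.00355). With arrays centred on their medians 2 of the 65 were called lower, and likewise 2 without control replicate 5 or double knockout replicate 2 or 3. Of 28 sphingolipid and glycolipid genes 3 were called lower, the sphingomyelinase Smpd1 (-0.56), the ganglioside activator Gm2a (-0.44) and the sialyltransferase St3gal5 (-0.53). On any kept probe 3 of the 28 were called lower and 1 higher, and on the mean of a gene's probes 1 lower and 0 higher. In glycolysis the hexokinases moved apart, Hk1 rising by 0.79 (adjusted p = 0.018) and Hk2 falling by 0.95 (adjusted p = 0.00933). No other gene of 32 was called on the brightest probe, while on any kept probe 3 were called higher and 1 lower. Hk2 read 13.05 to 13.51 in the controls and 11.44 to 12.75 in the double knockout, with replicate 4 the lowest. The respiratory chain and ATP synthase had 3 of 86 called higher and 3 lower. Atp5a1 rose by 0.62 (adjusted p = 0.00873), Atp5o fell by 0.56 and Atp5g1 by 0.55, all subunits of ATP synthase. Txnip, which inhibits thioredoxin, fell by 0.79 (adjusted p = 0.0089) and Txnrd1, which reduces it, rose by 0.80, the calls among 46 redox genes on the brightest probe. Leaving out 1 array ended the calls of Smpd1, Gm2a, Atp5o, Atp5g1 and Txnrd1 (adjusted p up to 0.0806, 0.0755, 0.0785, 0.0811 and 0.0945 without double knockout replicate 5) and St3gal5 (adjusted p up to 0.104 without control replicate 5).

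Chromatin and cell cycle genes other than histones were called in both directions. Of 101 chromatin modifiers 3 were called higher and 3 lower. Bmi1, of Polycomb complex 1, read 7.21, 7.41, 7.04, 7.06 and 7.35 in the controls and 8.08, 7.74, 7.91, 8.08 and 8.0 in the double knockout, and rose by 0.75 (SE 0.127, adjusted p = 0.00335). Ezh2, the methyltransferase of Polycomb complex 2, rose by 0.87 (adjusted p = 0.0151), with the double knockout arrays all between 7.27 and 7.41 and the controls between 5.71 and 7.14. Smarcd2, of a chromatin remodeller, fell by 0.47 (adjusted p = 0.0165). Among 48 DNA repair genes 3 were called lower, among them Parp1 (-0.51) and Pold1 (-0.53), and Rad51c higher (0.43). Cdkn1a, the cyclin-dependent kinase inhibitor p21, rose by 0.92 (adjusted p = 0.0126), 1 of 35 cell cycle genes, while Anapc5 (-0.61) and Plk2 (-0.64) fell. The other probes of Anapc5 read 0.22 and -0.32 and were not called. Without 1 array, calls ended for Parp1 (adjusted p up to 0.0712 without control replicate 2), Pold1 (adjusted p up to 0.0803 without double knockout replicate 2) and Rad51c (adjusted p up to 0.0969 without double knockout replicate 5).

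Matrix genes and cell type markers were called in both directions. Of 51 collagens, laminins and integrins Tnc, Col6a1 and Col7a1 (-0.73) were called lower and Col4a1 higher (1.69). Col4a1 read 8.04, 10.52, 7.88, 11.11 and 10.07 in control replicates 1 to 5 and 10.94 to 11.56 in the double knockout. The groups overlapped, and control replicates 1 and 3, with the low lens scores, were the lowest. Of 18 cone photoreceptor genes 1 was called higher and 2 lower, with a mean change of -0.11. The rise was that of recoverin (Rcvrn), a calcium-binding protein (0.90, adjusted p = 0.00154), and the falls were those of Arr3 and of Guca1a (-0.59), another activator of guanylate cyclase. Of 16 rod photoreceptor genes 5 were called higher and 2 lower (7 and 6 at an unadjusted p under 0.05), with a median of 0.19 and a mean of -0.19, which differ in sign. The falls were those of Guca1b and Pde6b, far larger than the rises of Gnat1, rod transducin (0.67, adjusted p = 0.00785), Reep6 (0.72), Samd7 (0.82), Slc24a1 and Susd3. The rod score was -0.31 to -0.01 in the double knockout and -0.07 to 0.18 in the controls. Without double knockout replicate 1, 2 or 3, 3 rod genes were called higher, and without control replicate 4, 4 were called lower. Without both control replicates 1 and 3, 3 rod genes were called higher and 3 lower. Of the markers of other cells, 2 of 16 bipolar markers (Lhx4 at 1.09 and Cabp5 at 0.77) and 2 of 8 horizontal cell markers (Tpm3 and Tfap2b, the latter at 0.57) were called higher. The bipolar median was 0.04, with 9 of the 16 changes positive. Tpm3 is also on the actin list, and Tfap2b on that of 18 amacrine markers, where 1 was called higher and 1 lower. Of the 8 horizontal cell markers 4 were called higher on any kept probe and 1 on the mean of a gene's probes. Of 17 vascular markers Col4a1 and the VEGF receptor gene Flt1 (0.69) were called higher and Abcc9 (-0.73) and Vtn (-0.65) lower. Pigment epithelium markers had a median of -0.86 and 3 of 14 called lower, with Krt18 at -1.0 (adjusted p = 0.00187) and Rdh5 at -1.27 (adjusted p = 0.0168). Rdh5 read 9.95 to 11.15 in the controls and 8.65 to 9.12 in the double knockout except in replicate 4, at 10.27. Without replicate 4, 10 of the 14 were called lower. Their score was -1.34 to -0.63 on the other 4 double knockout arrays and -0.05 to 0.51 in the controls, and its part in other results was not tested. Lens genes had a median of 2.43 and no call among 22 (11 higher at an unadjusted p under 0.05), and without control replicates 1 and 3 the median was 0.10. None of 19 microglia markers was called, or passed an unadjusted p under 0.05, with scores of -0.39 to 1.15 in the double knockout and -0.69 to 1.04 in the controls. With 1 array left out at a time, the calls that ended and their highest adjusted p were those of Col7a1 and Tfap2b (adjusted p up to 0.0532 and 0.0729 without control replicate 2), Col4a1 (adjusted p up to 0.0839 without double knockout replicate 3), Samd7 and Cabp5 (adjusted p up to 0.0888 and 0.0595 without double knockout replicate 2) and Vtn (adjusted p up to 0.0948 without control replicate 5). Vtn lost its call in 9 of the 10 such fits and Col4a1 in 8.

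Ranks 11 to 25 by size among called genes without overlap brought in genes of other kinds. Among the rises Hif1a, the oxygen-regulated transcription factor, read 8.11, 7.96, 7.03, 8.36 and 7.56 in the controls and 8.76, 9.01, 8.97, 9.20 and 9.06 in the double knockout, and rose by 1.20 (SE 0.211, adjusted p = 0.00415). Pgm2l1, which makes glucose 1,6-bisphosphate, rose by 1.11 (adjusted p = 0.00161), and Susd3 was at least 1.29-fold higher, being undetected in the controls. Ppp1cb, a catalytic subunit of protein phosphatase 1, rose by 1.02 and 0.97 on 2 of 3 probes, with 0.99 (adjusted p = 0.0769) on the last. Far1, of ether lipid synthesis, rose by 1.03 but read 0.16 on its other probe, and Ing3, of a histone acetyltransferase complex, by 1.03 against 0.43 and 0.84, neither called. R3hdm4 (1.09) and Amd2 (1.02), of polyamine synthesis, completed the rises not yet described. Among the falls Slc31a2, a copper transporter, fell by 1.08 (adjusted p = 0.00131), Tuft1 by 1.06 (adjusted p = 0.00154), Gckr, the glucokinase regulator, by 1.06 (adjusted p = 0.00477), and Alox5ap, which leukotriene synthesis needs, by 1.06 (adjusted p = 0.00281). Atg16l1, of autophagosome formation, fell by 1.04 (adjusted p = 0.00819), and Lgals4, a galectin, by 1.02 and 0.97 on 2 of 3 probes. Nr6a1 (-1.13), the nuclear receptor known from germ cells, and Catsper4 (-1.33), of a sperm calcium channel, were detected on all 10 arrays. Xntrpc (-1.13), Rdh9 (-1.07), Zfp691 (-1.06), Pbld2 (-1.02) and Ctcfl (-1.40, detected on 1 double knockout array) made up the rest. Calls lost without 1 array, with the highest adjusted p, were those of Ctcfl (adjusted p up to 0.102 without double knockout replicate 5).

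Set directly against the Cngb3 double knockout, 53 of 13077 probes (0.405%) differed in the Cnga3 double knockout. The targeted gene Cngb3 was higher in the Cnga3 double knockout (2.09, adjusted p = 0.0251). Of the genes named above, Pde6b (-1.26, adjusted p = 0.000569), Krt18 (-1.16, adjusted p = 0.00136) and Rdh5 (-1.44, adjusted p = 0.0443) were lower in the Cnga3 double knockout than in the Cngb3 double knockout. Cabp5 was higher by 1.26 (adjusted p = 0.00472) and R3hdm4 by 1.10, and Fam3c (-0.64), Chrd (-0.72), Tgfbr3 (-0.86) and Tuft1 (-0.74) were lower. Arr3 differed on its dimmer probe (-0.61, adjusted p = 0.0445) and not on the brighter one (-0.34, adjusted p = 0.328). Slc24a1, called higher against the control, was lower in this contrast (-1.13, adjusted p = 0.0109). The histone gene H2ac6 (0.29, adjusted p = 0.507), Hnrnpk (0.39, adjusted p = 0.259), Rab5a (0.32, adjusted p = 0.314) and Dlg4 (0.64, adjusted p = 0.212) did not pass in this contrast, which does not show that they were alike.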

How the data were processed

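Per the labels, total RNA of the pooled retinas of 1 mouse was labelled with biotin by an Illumina kit for each array, and the submitters' processing notes name GenomeStudio, without a version or settings. The deposited non-normalized table holds a linear intensity per probe and array, averaged over beads by the authors' software, and, per the file headers, a detection p-value against the negative controls. The authors' processed table holds log2 values, which equal the log2 of the quantile-normalized intensity to within 5e-09, without background correction.

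The neqc function of limma 3.58.1 (R 4.3.3) was applied to the intensities (background by a normal-exponential model with controls inferred from the detection p, offset 16, quantiles, log2). Kept were 13077 of 25697 probes, those detected (p under 0.01) on 5 or more arrays. The 15 arrays entered 1 model of the 3 groups, with 12 residual and 4.73 prior degrees of freedom. P-values are two-sided, from limma's moderated test, adjusted by Benjamini and Hochberg over the kept probes, and called under 0.05. Values are normalized log2 intensities, changes are differences of group means of 5, and "at least" folds use the detection limit of undetected arrays. Array number limits the precision.

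No slide or batch is given. Symbols came from the probe table and RefSeq gene tables. Promoters were found for 7422 of 9097 genes. Those of Guca1b, Rcvrn and H2bc4 are not shown, nor is that of Arr3.

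The genes named are the targeted genes, the 12 largest rises and falls called on all of 2 or more probes, ranks 11 to 25 of called genes without overlap, called list members of lowest p (up to 3), and genes with opposite probes. Guca1b, Pde6b, Arr3 and Drd4 were also named, being among the largest changes but not the 4 largest. Other list members were named after their values were seen. The members and lists were chosen with earlier results of these data known. Same-numbered replicates of both groups deviated together with correlations of 0.09, -0.02, 0.25, 0.21 and 0.01, so the numbers were not taken to pair the mice. Alternatives were median centring, the authors' log2 table, other offsets and filters, only the 10 arrays, a replicate block, array weights, an intensity trend, and leaving out arrays.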

Additional observations from a re-analysis of the deposited data

Results flagged for a closer look

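In 29 of 364 groups of 5 values examined, which were the genes named and 14 list scores in each of both groups, the highest or lowest array lay far from the other 4 by Dixon's criterion at the 95% level. Chance flags about 1 group in 20. Cnga3 double knockout replicate 4 was the array in 17 of them. In Cnga3 double knockout replicate 4 the highest value of the group was read for Atp5g1 (12.2 against 11.73 to 11.8 on the other 4) and Atp5o (8.03 against 7.262 to 7.452). The lowest value of the group was that of Cnga3 double knockout replicate 4 in Agtpbp1 (4.918 against 5.573 to 5.833 on the other 4), Ankzf1 (7.93 against 8.398 to 8.501), Araf (10.28 against 10.84 to 11.04), Hk2 (11.44 against 12.52 to 12.75), Lgals4 (6.621 against 7.333 to 7.557), Mettl17 (7.611 against 8.286 to 8.532), Nr6a1 (8.076 against 9.266 to 9.457), Parp1 (9.073 against 9.621 to 9.757), Tfap2b (11.26 against 11.61 to 11.7) and Xntrpc (5.689 against 6.964 to 7.411). In control replicate 3 the highest value of the group was read for Ctcfl (8.476 against 5.292 to 6.007 on the other 4) and Smpd1 (12.36 against 11.89 to 11.95). The lowest value of the group was that of control replicate 3 in Dhx9 (6.521 against 7.193 to 7.433 on the other 4) and Rasa1 (8.41 against 9.302 to 9.48). In Cnga3 double knockout replicate 1 the lowest value of the group was read for Khdrbs1 (9.35 against 9.699 to 9.779 on the other 4) and Susd3 (5.404 against 5.919 to 6.006). The highest value of the group was that of Cnga3 double knockout replicate 5 in Far1 (7.166 against 6.543 to 6.59 on the other 4). In Cnga3 double knockout replicate 5 the lowest value of the group was read for Rps14 (13.32 against 13.52 to 13.59 on the other 4). The highest value of the group was that of control replicate 4 in Ube2d3 (9.215 against 8.809 to 8.888 on the other 4). In control replicate 4 the lowest value of the group was read for Psmd8 (10.78 against 11.07 to 11.18 on the other 4). The highest value of the group was that of control replicate 1 in H2bc4 (12.68 against 11.91 to 12.04 on the other 4). In control replicate 5 the highest value of the group was read for Ebf2 (6.658 against 5.67 to 5.896 on the other 4). Of the list scores, which are mean log2 deviations, Cnga3 double knockout replicate 4 had the highest for histone genes (0.648 against 0.0701 to 0.202) and microglia and macrophage markers (1.15 against -0.386 to -0.0285). The lowest scores of that array were those for RNA helicases and RNA decay (-0.257 against 0.008 to 0.0434), photoreceptor ribbon synapse (-0.182 against 0.165 to 0.281) and cone photoreceptor genes (-0.274 against 0.0437 to 0.0661). The cause of these values was not tested.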

How the results depend on the processing

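The counts, of probes higher and lower, genes higher and lower, genes called on every probe and genes with opposite calls, were 603, 448, 315, 348, 38 and 2. With only the 10 arrays they were 209, 114, 96, 86, 7 and 0, with array weights 1120, 760, 631, 590, 89 and 14, and without control replicates 1 and 3 and Cnga3 double knockout replicate 4 (chosen after seeing the data) 1175, 699, 666, 533, 81 and 18. Leaving out 1 array gave 325 to 716, 217 to 552, 162 to 382, 167 to 433, 12 to 42 and 0 to 6. Median centring gave 172 probes and 135 genes called lower and 1 opposite gene, with 83.4% of called probes higher against 57.4%. Opposite genes numbered 5 without background correction, 0 with probes detected on all 15 arrays and 10 without control replicates 1 and 3. With no detection filter 19 genes were called on every probe, and with any kept probe 514 genes were higher. Every other count under these settings, an offset of 50 and an intensity trend stayed within 1.5 times. The causes were not tested.

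Replicate numbers were not taken to pair the mice, though the values cannot exclude a pairing. With the replicate block 654 probes were called higher and 453 lower, 41 genes were called on every probe and 4 had opposite calls, and of the rod genes 4 were higher and 4 lower. In 2 of 5 pairs the double knockout array correlated best with the control of its number.

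Of the 163 called genes named, 84 kept their call with only the 10 arrays, 128 with median centring, 149 with the replicate block and 105 in each fit without 1 array, and none reversed in any fit run. Among the 10 fits without 1 array, the call of Vtn was lost in 9. Those of Chst3, Col4a1, Cplx2, Eif4b, Pde8a and Polr2e were lost in 8. Atp5g1, Capzb, Ccdc65, Ctcfl, Ndufaf5, Nrarp, Rad51c, Rps14, St3gal5 and Tspan3 lost theirs in 7, and the other genes named in 6 or fewer. The uncalled difference of Cngb3 turned to -0.033 in the authors' table, -0.0055 with an offset of 50, -0.55 with array weights, -0.10 and -0.41 without control replicates 1 and 3 singly, -0.70 without both, -0.78 also without double knockout replicate 4, and -0.02, -0.06 and -0.11 without double knockout replicates 1, 4 and 5, and was at most 0.27 without 1 array. That of Cnga3 turned to 0.0092 and 0.16 without both controls and without all 3 arrays, and was at least -0.38 without 1 array.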
